A study of Homo sapiens with 6 samples.

Results

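The genes described here encode 9 RNA-binding adaptors that bring the CCR4-NOT complex to messenger RNAs: the tristetraprolin family (ZFP36, ZFP36L1, ZFP36L2), the Pumilio protein PUM2, the GW182 proteins of microRNA silencing (TNRC6A, TNRC6B, TNRC6C) and the Roquin proteins (RC3H1, RC3H2). They were chosen by name, and every probe set that the platform annotation assigns to 1 of these genes and to no other was taken, with all 6 arrays. They are 9 of 19775 genes with such a probe set, and hold 42 of the 41091 probe sets assigned to 1 gene.

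RNA was measured in A549, a human non-small cell lung cancer line, from which 3 stable lines had been derived by lentiviral transduction. Tetracycline-controlled expression cassettes in these lines encoded a short hairpin RNA: shCNOT3-1 or shCNOT3-2, which target different sequences of CNOT3, or the non-targeting hairpin shNTC. Each was grown for 72 hours with doxycycline (DOX, 1 ug/ml), which switches the hairpin on, and without it, so that the groups were shCNOT3-1 with DOX and without, shCNOT3-2 with DOX and without, and shNTC with DOX and without. There was 1 Affymetrix array per line and DOX state. All cells, the shNTC cells included, carried a lentiviral tetracycline-controlled hairpin, and 1 stable line represented each hairpin. The 2 hairpins are therefore the replicates of knockdown (n = 2), nothing in the labels describes repeat cultures, and every p-value rests on the spread between these arrays alone.

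CCR4-NOT shortens the poly(A) tails of messenger RNAs, which slows their translation and starts their decay, and CNOT3 is one of its non-catalytic subunits. The complex finds many of its targets through proteins that read a short sequence or structure in the 3′ untranslated region and bind CCR4-NOT with another part. Tristetraprolin proteins read AU-rich elements, Pumilio proteins a short UGUA-containing element and Roquin proteins a stem-loop, whereas TNRC6 proteins read no sequence themselves and are placed by Argonaute and its microRNA.

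Promoters are shown for PUM2 and RC3H2, which hold the 3 tested adaptor probe sets with the lowest DOX changes in shCNOT3-1. For RC3H2 this concerns 225813_at, and of its 6 tested probe sets 3 were higher and 3 lower with DOX there. The last is that of ZFP36, an early response gene. Its DOX changes in the shCNOT3 lines had opposite signs, as was seen for 11 of the 29 tested adaptor probe sets and 40.7% of all. Each sequence is the 250 bases before an annotated start in RefSeq (GRCh38.p14), 5′ to 3′ on the gene's strand. Capitals mark matches, on either strand, to the TATA box (TATAAA), the CCAAT box (CCAAT), the GC box (GGGCGG), the cyclic AMP element (TGACGTCA), the E-box (CACGTG) or the AP-1 element (TGANTCA). The first lies at chr2:20350845-20351094 (minus strand), the next at chr9:122905360-122905609 (minus strand) and the last at chr19:39406597-39406846 (plus strand).
PUM2: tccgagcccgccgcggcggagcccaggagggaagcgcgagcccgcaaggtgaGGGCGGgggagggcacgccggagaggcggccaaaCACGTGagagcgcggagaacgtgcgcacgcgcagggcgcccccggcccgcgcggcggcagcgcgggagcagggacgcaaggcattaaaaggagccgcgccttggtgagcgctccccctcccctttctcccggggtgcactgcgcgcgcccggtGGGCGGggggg
RC3H2: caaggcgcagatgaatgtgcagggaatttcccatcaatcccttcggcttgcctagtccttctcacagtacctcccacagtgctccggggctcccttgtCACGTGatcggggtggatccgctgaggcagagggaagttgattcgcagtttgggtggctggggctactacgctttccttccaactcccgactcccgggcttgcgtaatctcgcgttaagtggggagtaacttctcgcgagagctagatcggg
ZFP36: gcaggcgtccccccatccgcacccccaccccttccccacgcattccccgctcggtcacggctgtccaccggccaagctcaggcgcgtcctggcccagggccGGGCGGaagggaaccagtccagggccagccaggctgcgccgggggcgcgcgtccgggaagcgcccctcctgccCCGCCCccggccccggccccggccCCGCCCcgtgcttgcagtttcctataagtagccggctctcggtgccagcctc
The PUM2 window holds GGGCGG 2 times and CACGTG 1 time, the RC3H2 window CACGTG 1 time and the ZFP36 window GGGCGG 3 times. PUM2 has other annotated starts, whose windows are not printed. Of 14 windows found for 8 of the 9 genes (all but ZFP36L2), 7 held GGGCGG and 4 held CACGTG, and of 35116 RefSeq windows of this length 42.6% held GGGCGG and 6.34% held CACGTG. 2 of the 3 PUM2 windows overlap and share a GGGCGG and the CACGTG, so these are counted in both. A match describes these letters and is not a known binding site.

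The deposited values are linear intensities. The keratins KRT8 and KRT18, markers of epithelial cells, read from 30881 to 42145 and from 42729 to 52581 over the 6 arrays, and all 5 epithelial markers examined were bright enough to test. The leukocyte marker PTPRC read 15.6 to 38.0 and the endothelial markers VWF and CDH5 were too dim to test, while the leukocyte marker CD14 read 144 to 265 and the endothelial marker PECAM1 107 to 277. CNOT3, the targeted gene, read 81.9 with DOX against 227 without in shCNOT3-1, 46.9 against 228 in shCNOT3-2 and 166 against 178 in shNTC (203239_s_at), so that 36.1%, 20.5% and 93.4% of the level without DOX was left. On its other tested probe set (229143_at) 22.3%, 21.0% and 36.9% was left, so there the shNTC line was lower with DOX as well. A further CNOT3 probe set (211141_s_at) was too dim. In bulk RNA, fewer cells with a transcript and less of it per cell cannot be told apart.

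Of the 42 probe sets, the 29 whose mean log2 intensity over the arrays was at or above 5.96 (an intensity of 61.4, the median of all probe sets) were tested, among 27279 probe sets in all. The 13 left out, 6 of them on TNRC6C, read between 2.30 and 154 on single arrays. The knockdown change is the mean log2 DOX change of the shCNOT3 lines from a limma fit with the line as a block. Its spread comes from the difference between hairpins and the DOX change of shNTC, taken as noise, beside a prior over all tested probe sets. The knockdown change passed at an adjusted p under 0.05 for 0 of the 29 probe sets, where 0.132% of all tested probe sets (36) passed. At an unadjusted p under 0.05 the count was 5 of 29 (17.2%), against 13.5% of all. The 5 were both PUM2 probe sets and 1 of ZFP36L2, all lower with DOX, and 1 each of TNRC6A and RC3H1, both higher. With no intensity trend in the prior variance the count was 0 of 29, where 3129 of all 27279 had such a p. With the brightest probe set per gene it was 2 of 9, where 1835 of all 12630 had. The change beyond that of shNTC passed for 0 of 29 at an adjusted p under 0.05 and for 0 at an unadjusted p under 0.05, where 0% and 7.69% of all tested probe sets did.

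**Figure D1:**
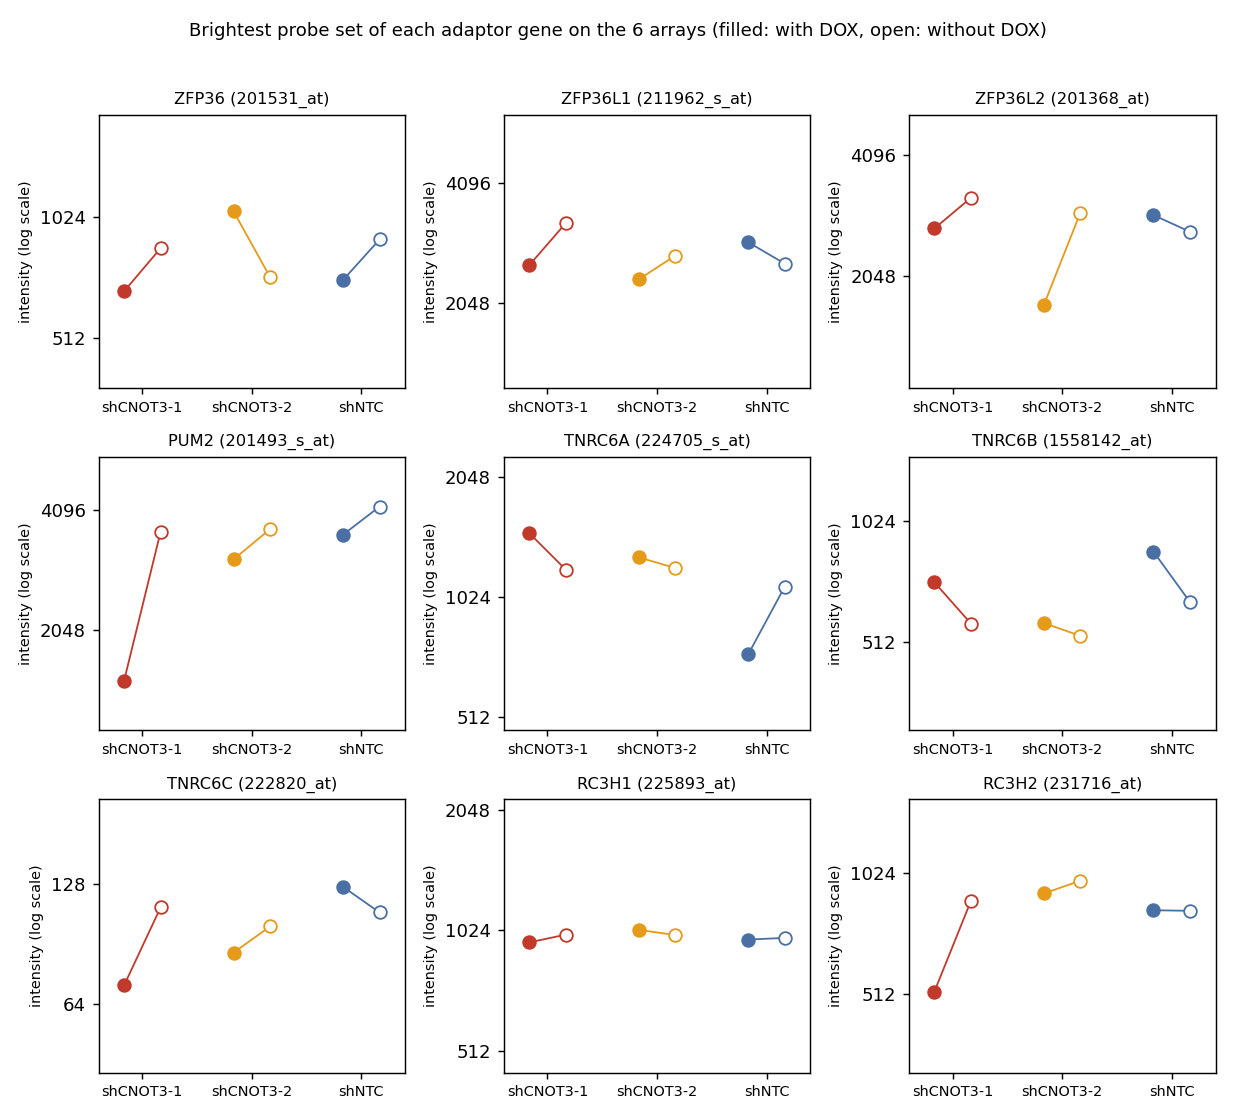
Intensity (log scale) of the brightest probe set of each of the 9 adaptor genes on each of the 6 arrays, with 1 panel per gene and 1 point per array, so there are no error bars. In the PUM2 panel the shCNOT3-1 array with DOX, at 1526, stands below the other arrays, which lie between 3075 and 4167.

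ZFP36, or tristetraprolin, is itself induced early by growth factors and inflammatory signals, and binds CNOT1 of the complex. Its 1 probe set (201531_at) read 669 with DOX against 857 without in shCNOT3-1, 1061 against 726 in shCNOT3-2 and 714 against 902 in shNTC. The shCNOT3-2 array with DOX was the highest of the 6 and the shCNOT3-1 array with DOX the lowest, so the shCNOT3 arrays with DOX spanned those without. On the log2 scale the DOX changes were -0.36 in shCNOT3-1, 0.55 in shCNOT3-2 and -0.34 in shNTC, and the knockdown change was 0.09 ± 0.26 (SE, limma, n = 2; adjusted p = 0.914). A limma test of the difference between hairpins, added after the data were seen, gave a change in shCNOT3-1 minus that in shCNOT3-2 of -0.90 for ZFP36 (unadjusted p = 0.0706). Each hairpin has 1 pair of arrays in this test, and its 1 residual degree of freedom is the DOX change of shNTC, taken as noise beside the prior, so its p-values are a weak guide.

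ZFP36L1 and ZFP36L2 bind the same AU-rich elements and restrain growth-related and cell cycle transcripts. ZFP36L1 (211962_s_at) read 2547 with DOX against 3245 without in shCNOT3-1, 2347 against 2691 in shCNOT3-2 and 2907 against 2570 in shNTC. Both shCNOT3 arrays with DOX lay below the 4 others, though the gap to the nearest, shNTC without DOX, was small. The knockdown change was -0.27 ± 0.17 (SE, limma; adjusted p = 0.543). The dimmer ZFP36L1 probe set (211965_at) read 101 with DOX against 153 without in shCNOT3-1, 133 against 149 in shCNOT3-2 and 241 against 158 in shNTC. Here too both shCNOT3 arrays with DOX were below the 4 others, with a knockdown change of -0.37 ± 0.34 (SE, limma; adjusted p = 0.682), and its highest array was shNTC with DOX.

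For ZFP36L2 (201368_at) the values were 2686 with DOX against 3207 without in shCNOT3-1, 1730 against 2945 in shCNOT3-2 and 2902 against 2636 in shNTC. The shCNOT3-2 array with DOX was the lowest by a wide margin, and 58.7% of the level without DOX was left there, against 83.8% in shCNOT3-1 and 110% in shNTC. Its knockdown change was -0.51 ± 0.19 (SE, limma; unadjusted p = 0.0248, adjusted p = 0.298), and the shCNOT3-1 array with DOX overlapped the arrays without DOX. The other tested ZFP36L2 probe set (201369_s_at) read 308 with DOX against 260 without in shCNOT3-1, 209 against 257 in shCNOT3-2 and 201 against 251 in shNTC. It did not repeat the pattern of the first: its knockdown change was -0.02 ± 0.27 (SE, limma; adjusted p = 0.982).

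PUM2 had the lowest knockdown changes of the 29 probe sets, and its fall with DOX was larger in shCNOT3-1 than in the other lines. PUM2 represses transcripts with Pumilio elements, in part through CCR4-NOT. Its brightest probe set (201493_s_at) read 1526 with DOX against 3602 without in shCNOT3-1, 3075 against 3660 in shCNOT3-2 and 3545 against 4167 in shNTC. The second (216221_s_at) read 1072 with DOX against 2800 without in shCNOT3-1, 2510 against 2917 in shCNOT3-2 and 2753 against 3122 in shNTC. On both, the shCNOT3-1 array with DOX was well under every other array, and in shCNOT3-2 and shNTC 84.0% to 88.2% of the level without DOX was left. The share left in shCNOT3-1 was 42.4% on the first and 38.3% on the second.

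The log2 DOX changes of PUM2 were -1.24 in shCNOT3-1, -0.25 in shCNOT3-2 and -0.23 in shNTC on the first probe set and -1.38, -0.22 and -0.18 in these lines on the second. Knockdown changes were -0.74 ± 0.24 (SE, limma; unadjusted p = 0.0114, adjusted p = 0.244) and -0.80 ± 0.26 (unadjusted p = 0.0128, adjusted p = 0.251), and neither passed. The difference between hairpins was -0.99 ± 0.36 on the first probe set (95% interval -1.80 to -0.17; unadjusted p = 0.0227, adjusted p = 0.748) and -1.17 ± 0.37 on the second (unadjusted p = 0.0107, adjusted p = 0.659). In shCNOT3-1, 2.45% and 1.71% of all tested probe sets had a lower DOX change than these. Without shCNOT3-1 the knockdown change of PUM2 was -0.25 and -0.22. In the hairpin test 4 of 29 probe sets had an unadjusted p under 0.05, against 5.94% of all, and 0 an adjusted p under 0.05, against 0% of all. The 4 were the PUM2 pair and 2 of RC3H2.

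**Figure D2:**
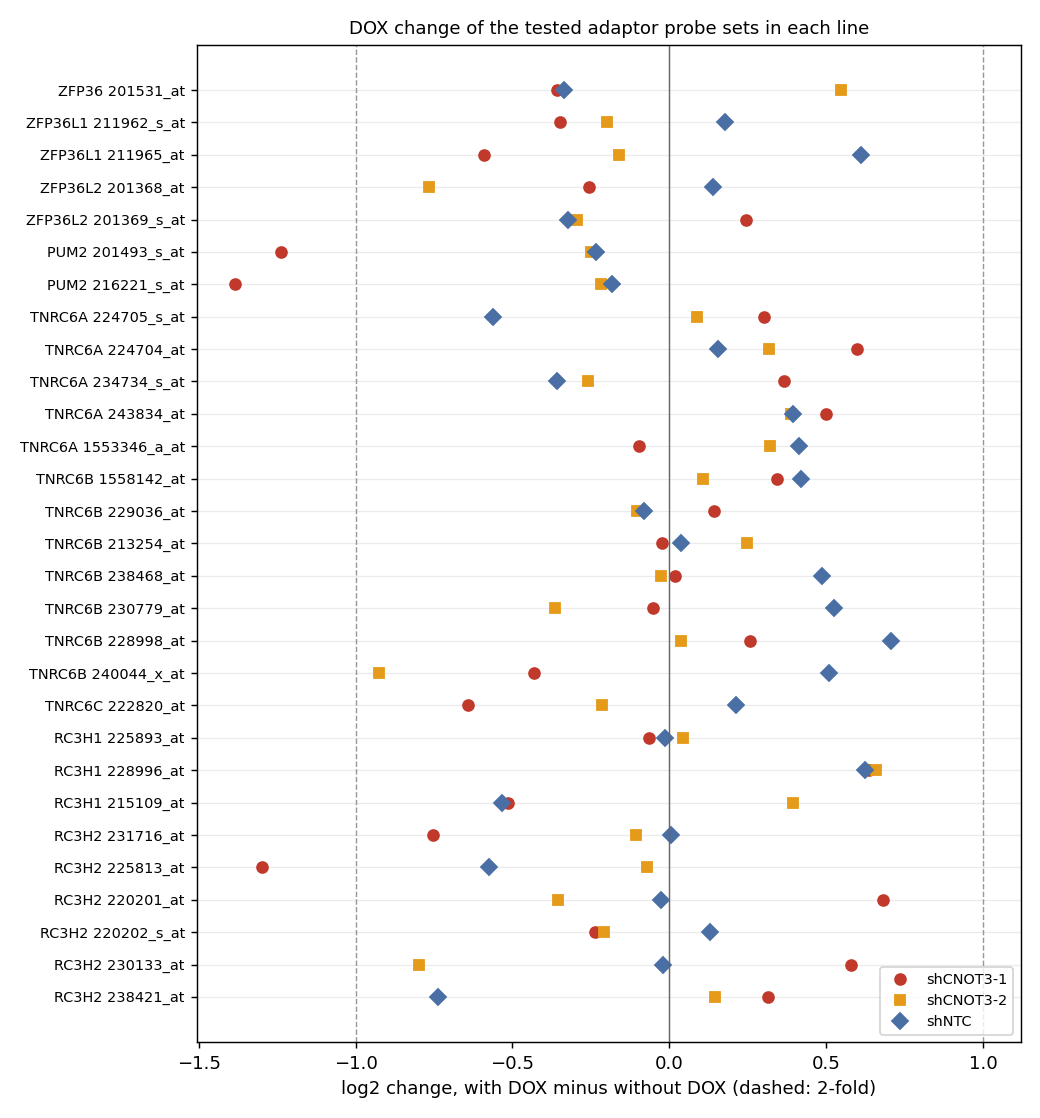
Log2 DOX change (with minus without) of the 29 tested adaptor probe sets, 1 point per line, 1 array a side and therefore no error bars. The lowest points, -1.38 and -1.24 for PUM2 and -1.30 for RC3H2 225813_at, all belong to shCNOT3-1, and the shNTC points lie between -0.74 and 0.71.

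TNRC6A, the founding GW182 protein, links Argonaute to CCR4-NOT and to the PAN2-PAN3 deadenylase. Its brightest probe set (224705_s_at) read 1478 with DOX against 1198 without in shCNOT3-1, 1285 against 1209 in shCNOT3-2 and 735 against 1086 in shNTC. Both shCNOT3 arrays with DOX were above the 4 others, and the shNTC array with DOX was far below the rest. The knockdown change was 0.20 ± 0.23 and the change beyond shNTC 0.76 ± 0.38 (SE, limma; adjusted p = 0.772 and 0.689). The next (224704_at) read 1378 with DOX against 911 without in shCNOT3-1, 1105 against 886 in shCNOT3-2 and 1253 against 1125 in shNTC. DOX values were higher in all 3 lines there, and the knockdown change was 0.46 ± 0.20 (SE, limma; unadjusted p = 0.0484, adjusted p = 0.365). These probe sets of 1 gene thus gave opposite signs in shNTC, -0.56 and 0.15. Over the 5 tested TNRC6A probe sets the changes ran from -0.10 to 0.60 in shCNOT3-1, from -0.26 to 0.39 in shCNOT3-2 and from -0.56 to 0.41 in shNTC.

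All 7 probe sets of TNRC6B, a paralog with the same partners, were tested. The brightest (1558142_at) read 721 with DOX against 568 without in shCNOT3-1, 570 against 529 in shCNOT3-2 and 861 against 643 in shNTC, so the shNTC array with DOX was the highest. Its knockdown change was 0.22 ± 0.23 (SE, limma; adjusted p = 0.726). Over the 7, DOX values were higher for 4 in shCNOT3-1, 3 in shCNOT3-2 and 6 in shNTC, with median log2 changes of 0.02, -0.03 and 0.49 in these lines. Over all tested probe sets 49.7%, 50.5% and 49.9% were lower with DOX in these lines, which sets the scale for such counts. The changes of the 7 TNRC6B probe sets ran from -0.43 to 0.34 in shCNOT3-1, from -0.93 to 0.25 in shCNOT3-2 and from -0.08 to 0.71 in shNTC. The lowest knockdown change among them, -0.68 ± 0.43 (SE, limma; adjusted p = 0.543), was that of the dim 240044_x_at, whose arrays without DOX already ranged from 54.2 to 134.

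TNRC6C could be tested on 1 of its 7 probe sets (222820_at). It read 71.3 with DOX against 112 without in shCNOT3-1, 86.2 against 100.2 in shCNOT3-2 and 126 against 109 in shNTC. Both shCNOT3 arrays with DOX were below the other 4, at intensities little above the filter. The knockdown change was -0.43 ± 0.38 (SE, limma; adjusted p = 0.677).

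RC3H1, or Roquin-1, recognises stem-loops in inflammatory transcripts and recruits CCR4-NOT. Its brightest probe set (225893_at) read 955 with DOX against 999 without in shCNOT3-1, 1027 against 997 in shCNOT3-2 and 971 against 980 in shNTC. Relative to their level, those 6 values span less than those of any other tested adaptor probe set, and the knockdown change was -0.01 ± 0.20 (SE, limma, 95% interval -0.45 to 0.43; adjusted p = 0.989). A second RC3H1 probe set (228996_at) read 550 with DOX against 353 without in shCNOT3-1, 555 against 352 in shCNOT3-2 and 474 against 308 in shNTC. Every array with DOX was above every array without it, by a like amount in all 3 lines: the log2 changes were 0.64 in shCNOT3-1, 0.66 in shCNOT3-2 and 0.62 in shNTC. Its knockdown change was 0.65 ± 0.26 (SE, limma; unadjusted p = 0.0353, adjusted p = 0.333), and its change beyond shNTC 0.02 ± 0.42 (adjusted p = 0.991). The dim 215109_at had DOX changes of -0.51 in shCNOT3-1, 0.39 in shCNOT3-2 and -0.53 in shNTC.

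RC3H2, or Roquin-2, shares the stem-loop targets of Roquin-1. Its brightest probe set (231716_at) read 518 with DOX against 873 without in shCNOT3-1, 912 against 982 in shCNOT3-2 and 828 against 825 in shNTC. The shCNOT3-1 array with DOX stood apart from the rest, and the knockdown change was -0.43 ± 0.23 (SE, limma; adjusted p = 0.459). The next (225813_at) read 502 with DOX against 1235 without in shCNOT3-1, 750 against 788 in shCNOT3-2 and 574 against 856 in shNTC. Again shCNOT3-1 with DOX was lowest, with 40.6% of the level without DOX left, but the array it was set against was also the highest of the 3 without DOX. The knockdown change was -0.68 ± 0.32 (SE, limma; adjusted p = 0.389) and the difference between hairpins -1.22 (unadjusted p = 0.0343, adjusted p = 0.801).

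Other RC3H2 probe sets ran the other way in that line. The next in brightness (220201_at) read 694 with DOX against 432 without in shCNOT3-1, 370 against 473 in shCNOT3-2 and 526 against 536 in shNTC, and its difference between hairpins was 1.04 (unadjusted p = 0.0452). On 230133_at the log2 DOX changes were 0.58 in shCNOT3-1, -0.80 in shCNOT3-2 and -0.02 in shNTC. RC3H2 as a gene therefore has no single direction in shCNOT3-1: of its 6 tested probe sets 3 were higher and 3 lower with DOX there, against 1 higher and 5 lower in shCNOT3-2 and 2 higher and 4 lower in shNTC.

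**Figure D3:**
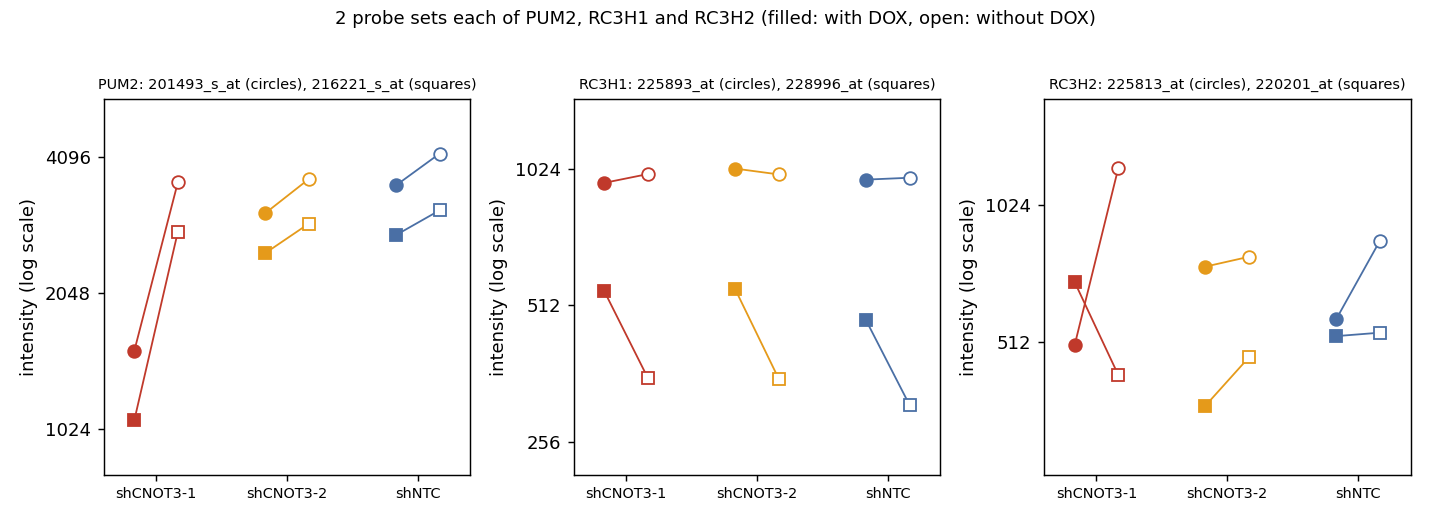
Intensity on the 6 arrays for a pair of probe sets each of PUM2, RC3H1 and RC3H2, 1 point per array. The PUM2 pair follow each other, the RC3H1 pair differ (225893_at stays between 955 and 1027, 228996_at is higher with DOX in every line), and the RC3H2 pair 225813_at and 220201_at move in opposite directions in shCNOT3-1. Unlike the other pairs, the RC3H2 pair leaves out the gene's brightest probe set, 231716_at, whose log2 DOX change in shCNOT3-1 was -0.75.

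Probe sets of the same gene can match different transcript ends or isoforms, and those of the adaptors differed among themselves. Pearson's r of log2 intensity over the 6 arrays was 0.995 for the PUM2 pair, 0.47 for ZFP36L1 and 0.40 for ZFP36L2. It ran from -0.83 to 0.91 over 15 pairs of RC3H2, from -0.64 to 0.89 over 10 pairs of TNRC6A, from -0.58 to 0.73 over 21 pairs of TNRC6B and from -0.39 to -0.05 over 3 pairs of RC3H1. Its median was 0.10 over the 52 pairs within a gene and -0.02 over the 354 pairs of different adaptor genes. All these values share the same 6 arrays and are a description.

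Across the lines, the 29 adaptor probe sets shared no common direction. In both shCNOT3 lines 11 were lower with DOX and 7 higher, and 11 had opposite signs, where 29.8%, 29.5% and 40.7% of all tested probe sets did. Lower in both shCNOT3 lines and not in shNTC were 8 (27.6%), against 14.8% of all, and 8 had the same sign in all 3 lines, against 29.7% of all. The first 8 were both of ZFP36L1, ZFP36L2 201368_at, TNRC6B 230779_at and 240044_x_at, TNRC6C 222820_at, and RC3H2 231716_at and 220202_s_at. Higher in both shCNOT3 lines and not in shNTC were 2, TNRC6A 224705_s_at and RC3H2 238421_at, against 14.8% of all. Both shCNOT3 arrays with DOX were below the 4 others for 6 probe sets (20.7%), against 13.6% of all, and above them for 3 (10.3%), against 13.4% of all.

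At least 2-fold DOX changes were seen for 3 of 29 in shCNOT3-1, all lower (PUM2 201493_s_at and 216221_s_at, RC3H2 225813_at; 4.41% of all were that much lower there), for 0 in shCNOT3-2 and for 0 in shNTC, where 7.64%, 7.75% and 5.28% of all tested probe sets changed that much in either direction. Median log2 changes over the 29 were -0.05 in shCNOT3-1, -0.10 in shCNOT3-2 and 0.04 in shNTC, and those over all tested probe sets 0.00, -0.01 and 0.00. With 1 probe set per gene, the brightest, the medians over the 9 genes were -0.35 in shCNOT3-1, -0.11 in shCNOT3-2 and 0.01 in shNTC, against 0.05, 0.02 and -0.01 over all genes. The median size of the change, whatever its sign, was 0.36 in shCNOT3-1, 0.25 in shCNOT3-2 and 0.34 in shNTC for the 29, against 0.31, 0.31 and 0.26 for all. With the brightest probe set of each of the 9 genes it was 0.35 in shCNOT3-1, 0.20 in shCNOT3-2 and 0.21 in shNTC. Over all genes, each by its brightest tested probe set, it was 0.29, 0.29 and 0.23 in these lines.

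**Figure D4:**
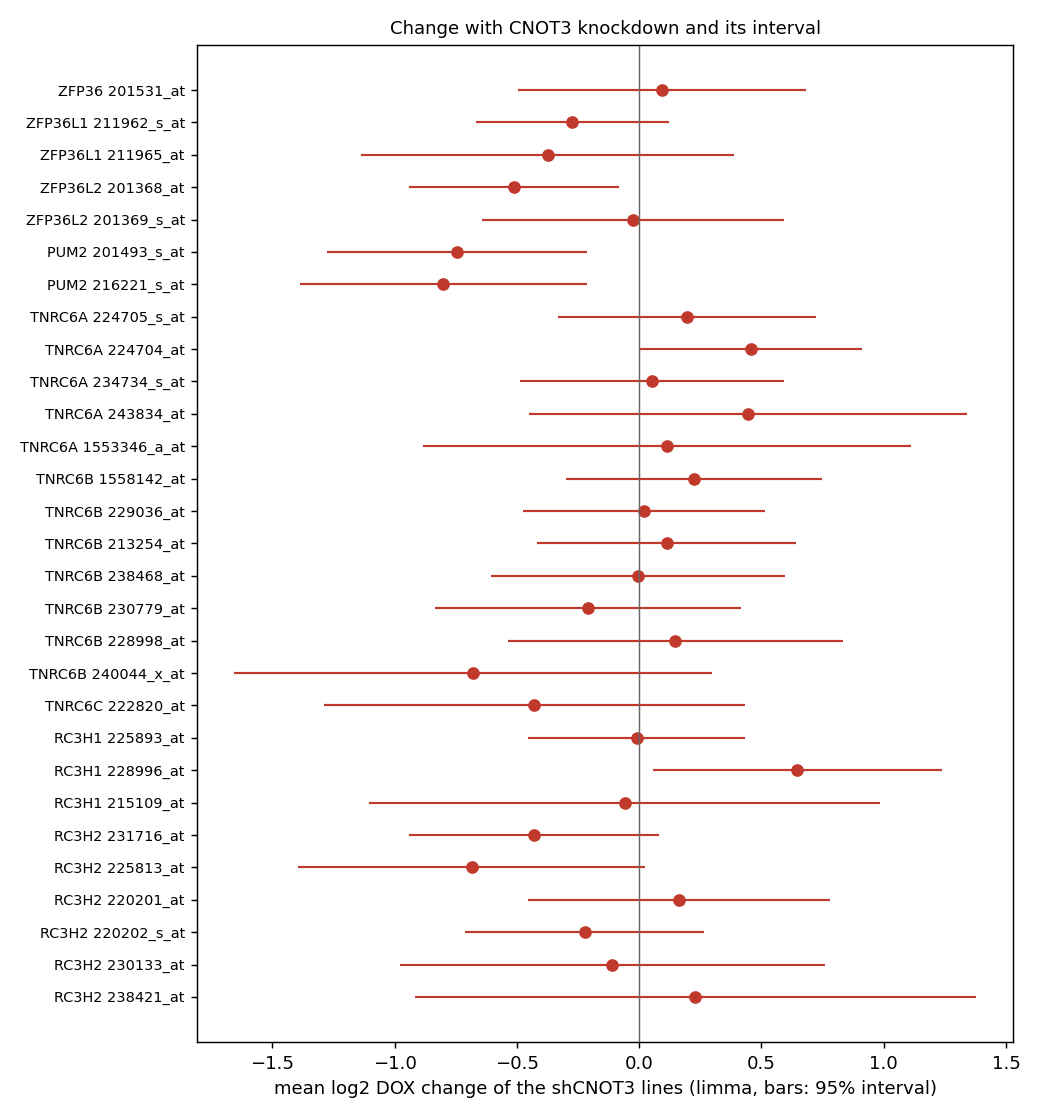
Knockdown change (mean log2 DOX change of the shCNOT3 lines) of each tested adaptor probe set, with its 95% interval from limma (n = 2 hairpins). The intervals of 5 probe sets exclude 0 before adjustment, from -0.80 for PUM2 216221_s_at to 0.65 for RC3H1 228996_at, and 0 pass after adjustment.

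The complex that the adaptors recruit was measured alongside, each gene by its brightest probe set. Of 11 CCR4-NOT subunits 0 passed the adjusted threshold for the knockdown change, and at an unadjusted p under 0.05 1 was lower (CNOT3, -1.86 ± 0.34, SE, limma; adjusted p = 0.0888). Of all tested probe sets 7.49% were lower at that unadjusted p. The other named subunits were CNOT8, a deadenylase, at -0.11, the ubiquitin ligase CNOT4 at 0.26 and the deadenylase CNOT6L at 0.47. Other tested probe sets had the opposite sign: those of CNOT8 were at 0.26 and 0.24, those of CNOT6L at -0.27 and -0.23. CNOT1, the scaffold that tristetraprolin, Pumilio and Roquin proteins bind, read 4297 with DOX against 4619 without in shCNOT3-1, 4258 against 4331 in shCNOT3-2 and 5116 against 3751 in shNTC, with a knockdown change of -0.06 ± 0.19 (adjusted p = 0.919). CNOT9, the subunit with the tryptophan pockets that hold TNRC6, read 1085 with DOX against 1186 without in shCNOT3-1, 1117 against 1150 in shCNOT3-2 and 1240 against 1188 in shNTC. These 2 subunits were singled out for that role, outside the naming rule.

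Among 10 Argonautes and other partners of TNRC6, 0 passed the adjusted threshold and 1 was lower at an unadjusted p under 0.05 (7.49% of all were). It was LIMD1, an adaptor between Argonaute and the cap-binding machinery. LIMD1 (222762_x_at) read 469 with DOX against 2190 without in shCNOT3-1, 1944 against 2454 in shCNOT3-2 and 1518 against 1895 in shNTC, which is over 2-fold lower with DOX in shCNOT3-1 (knockdown change -1.28 ± 0.37, SE, limma; adjusted p = 0.208). A limma test of its difference between hairpins gave -1.88 (unadjusted p = 0.00108, adjusted p = 0.508). Without shCNOT3-2 the LIMD1 value was -2.22 (adjusted p = 0.0399), and other LIMD1 probe sets had knockdown changes of -0.67 and 0.03. The Argonautes AGO4 and AGO1 had knockdown changes of -0.52 and 0.24 (from -0.20 to 0.30 on other AGO1 probe sets), and EIF4ENIF1, which ties the cap-binding protein to decay factors, 0.42.

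Of 23 further RNA-binding adaptors and regulators of mRNA decay, 18 were measured. Of the 18, 0 passed after adjustment and 5 were lower and 0 higher at an unadjusted p under 0.05 (7.49% of all tested probe sets were lower and 6.03% higher), and 10 were lower in both shCNOT3 lines and 2 higher (29.8% and 29.5% of all were). CPEB4, which binds cytoplasmic polyadenylation elements, read 368 with DOX against 1074 without in shCNOT3-1, 654 against 1278 in shCNOT3-2 and 1055 against 1155 in shNTC. Both shCNOT3 lines were lower with DOX and shNTC differed little, yet the knockdown change of -1.25 ± 0.22 did not pass (SE, limma; adjusted p = 0.0838). The other tested CPEB4 probe sets gave -0.75 and -1.08. NANOS1, a Pumilio partner, was at -0.84 and SAMD4B at 0.37 (-0.24 and 0.27 on other probe sets). CPEB1 was at 0.39 (0.03 on its other tested probe set). Outside the naming rule, the other 3 that were lower at an unadjusted p under 0.05 were MEX3D at -0.74, ELAVL1, which binds AU-rich elements as tristetraprolin does and stabilises its targets, at -0.69, and TIA1, a stress granule protein, at -0.60. ELAVL1 read 4014 with DOX against 9880 without in shCNOT3-1, 8941 against 9454 in shCNOT3-2 and 11566 against 12085 in shNTC.

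Transcripts described as adaptor targets were listed with earlier results of these data known, so their direction is no independent evidence. Of 22 described targets of the ZFP36 family 20 were measured, 1 rose after adjustment (0.055% of all tested probe sets did), 5 were higher and 0 lower at an unadjusted p under 0.05 (6.03% and 7.49% of all were), and 10 were higher in both shCNOT3 lines and 3 lower (29.5% and 29.8% of all were). PLAU, the urokinase plasminogen activator, read 6867 with DOX against 2339 without in shCNOT3-1, 6474 against 1904 in shCNOT3-2 and 3295 against 2002 in shNTC. It rose by 1.66 ± 0.24 (log2, SE, limma; adjusted p = 0.0451), and was 0.72 higher with DOX in shNTC. That call was lost with quantile normalization (adjusted p = 0.0506), with no filter on dim probe sets (0.151), with no intensity trend (0.370) and without either hairpin (0.122 without shCNOT3-1, 0.114 without shCNOT3-2). On its other tested probe set (211668_s_at) PLAU was at 1.43 and did not pass (limma, adjusted p = 0.0955), with a DOX change of 0.84 in shNTC. The chemokine CCL20 read 1225 with DOX against 246 without in shCNOT3-1, 4809 against 192 in shCNOT3-2 and 18.7 against 189 in shNTC, with a knockdown change of 3.47 (limma; adjusted p = 0.173). Leaving out shNTC, whose own change was the opposite, gave an adjusted p of 0.0283. The other 3 that were higher at an unadjusted p under 0.05 were IL6 and DUSP1, whose values follow, and the chemokine CXCL8 at 0.54 (limma, adjusted p = 0.279), named after its value was seen. CCL2 and PTGS2 were at -0.44 and -0.42. On its other tested probe set (1554997_a_at), outside the counts above, PTGS2 was at -0.60 (limma, unadjusted p = 0.0351, adjusted p = 0.333).

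Of 6 described Pumilio targets 4 were measured, and 0 passed after adjustment. E2F3, a cell cycle transcription factor, was lower at an unadjusted p under 0.05 (-0.52, adjusted p = 0.296, limma), as were 7.49% of all tested probe sets. Its other tested probe set (203692_s_at) was at -0.39 (limma, unadjusted p = 0.163). The log2 DOX changes there were -0.69 in shCNOT3-1, -0.09 in shCNOT3-2 and 0.28 in shNTC. ATXN1 was at -0.37 (-0.47 and 0.08 on other probe sets) and CDKN1B at 0.08. DUSP6, an ERK phosphatase, was at 0.35 on its brightest probe set, and at 1.06 and 2.04 on the others (limma, unadjusted p = 0.00254 and 0.0359, adjusted p = 0.160 and 0.335). The 2.04 (208893_s_at) averages log2 DOX changes of opposite sign, 4.24 in shCNOT3-1 and -0.16 in shCNOT3-2, with 1.24 in shNTC. Its shCNOT3-1 array without DOX read only 21.4. Of 8 described Roquin targets 6 were measured and 0 passed after adjustment. The cytokine IL6 read 255 with DOX against 69.4 without in shCNOT3-1, 216 against 79.3 in shCNOT3-2 and 51.0 against 105 in shNTC, which is 1.65 for the knockdown change (limma, adjusted p = 0.182). NFKBID was at -0.41, NFKBIZ at -0.13 (0.08 on its other tested probe set) and IRF4 at 0.17. Of 11 early genes induced by the stimuli that induce ZFP36, 10 were measured, 0 passed after adjustment and 2 were higher at an unadjusted p under 0.05 (6.03% of all were). In both shCNOT3 lines 6 were higher and 1 was lower (29.5% and 29.8% of all were). The 2 were NR4A1, a nuclear receptor (1.16, adjusted p = 0.113, limma), and DUSP1, a MAP kinase phosphatase (0.83, adjusted p = 0.0827, limma), while MYC was at 0.06 and IER2 at -0.08.

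For each adaptor's brightest probe set the gene whose log2 levels were most alike over the 6 arrays was sought among 23163 tested probe sets of other genes. For PUM2 they were LOC100506730 (Pearson's r = 0.998), MFSD8, a lysosomal membrane protein (0.997), and RBBP4, a histone-binding protein (0.996), and 251 probe sets exceeded 0.95. For ZFP36 the most alike gene was SETD9 (0.999), for ZFP36L1 ZBTB14 (0.992) and for ZFP36L2 HS2ST1 (0.998). TNRC6A was most like the nuclear receptor NR4A2 (0.996), TNRC6B like the mitochondrial pyrophosphatase PPA2 (0.996) and TNRC6C like the mitochondrial protease YME1L1 (0.999). RC3H1 was most like L3HYPDH (0.988) and RC3H2 like LRRC45 (0.993). With 6 shared arrays and so many candidates, between 30 and 251 probe sets exceeded 0.95 for each adaptor, and these names are a description.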

How the data were processed

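Total RNA from 3 stable A549 lines, each with and without DOX, was made into biotinylated cRNA from 500 ng and put on Affymetrix arrays, per the labels' protocols. The authors deposited 1 intensity per probe set (linear scale). Per the submitters' processing notes MAS5 was used, whose settings the sources used here do not give. Each array's mean after trimming 2% at each end was 500.1, the medians were 64.9 to 72.8, and the lowest value was 1, held by 202 to 376 probe sets. The 3′ to 5′ ratio was 0.966 to 1.09 for GAPDH and 1.33 to 1.58 for ACTB. Precision is limited by the number of arrays.

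The table has 54675 probe sets, 62 of them controls, which were left out. The platform annotation names 1 gene for 41091 of them and several for 1801, does not list 11777, and no probe set named an adaptor together with another gene. Current RefSeq symbols were found by Entrez identifier for 41043 of these. No genome build is named for the arrays, so no probe set is placed on the genome.

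A constant of 1 was added to each intensity before taking log2, which understates changes of dim genes. Probe sets with a mean log2 at or above the median were tested with limma 3.58.1 in R 4.3.3 (intensity-dependent prior, 2-sided, Benjamini-Hochberg over all 27279, threshold 0.05), checked on simulated data. The first model had the line as a block, since the labels give each line with and without DOX. It also had a term for the shCNOT3 arrays with DOX (2 residual degrees of freedom, prior 7.28). Those 2 are the difference between hairpins and the DOX change of shNTC, taken as noise. The second added a DOX term (1 residual, prior 8.30). The test of the difference between hairpins, added after the data were seen, had the line as a block and a DOX term for each shCNOT3 line (1 residual, the DOX change of shNTC, prior 8.60). The adaptors and lists were chosen with earlier results of these data known. The text names every adaptor probe set tested or its range, CNOT3, the 2 highest and 2 lowest genes of each of 7 lists with any past the threshold, and the most alike genes. Alternatives were quantile normalization, centring each array on its median, a constant of 16, no filter or a stricter one, the brightest probe set per gene, no intensity trend, a robust prior, no block, and leaving out each line.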

Additional observations from a re-analysis of the deposited data

How the results depend on the processing

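Of the 29 adaptor probe sets, 0 passed the adjusted threshold for the knockdown change under any alternative run, and the lowest adjusted p was 0.0828 (PUM2 216221_s_at). Of 324 such results 307 kept their direction and 17, on 11 probe sets whose reported size was 0.16 or less, had the other sign. The count over all tested probe sets, 36 as reported, was 21 with quantile normalization, 76 with the stricter filter, 0 with no filter, 0 with no intensity trend and 14 to 45 with 1 line left out. Pairing within lines comes from the labels, and with no replicate block the count was 220. For the change beyond shNTC, 0 as reported, it was 2 with quantile normalization and 83 with each array centred on its median, and with a line left out it could not be fitted. The median adaptor change was -0.35 in shCNOT3-1 with 1 probe set per gene and -0.18 in shCNOT3-2 with each array centred on its median. With no replicate block these changed sign: ZFP36L2 201369_s_at 0.077, TNRC6A 1553346_a_at -0.042, TNRC6B 229036_at -0.14, TNRC6B 238468_at 0.039 (0.012 with quantile normalization), RC3H1 225893_at 0.0054 and IER2 0.082. With 1 line left out these spanned 0: ZFP36 -0.36 to 0.55, ZFP36L2 201369_s_at -0.30 to 0.25, TNRC6A 234734_s_at -0.26 to 0.36, TNRC6A 1553346_a_at -0.10 to 0.32, TNRC6B 229036_at -0.10 to 0.14, TNRC6B 213254_at -0.022 to 0.25, TNRC6B 238468_at -0.026 to 0.017, RC3H1 225893_at -0.065 to 0.043, RC3H1 215109_at -0.51 to 0.39, RC3H2 220201_at -0.36 to 0.68, RC3H2 230133_at -0.80 to 0.58, CCL2 -1.56 to 0.68, CPEB1 -0.20 to 0.98, IRF4 -0.14 to 0.48, MYC -0.18 to 0.30, NFKBID -1.17 to 0.34, NFKBIZ -0.40 to 0.14, PTGS2 -0.91 to 0.072 and SAMD4B -0.22 to 0.97. With no replicate block CNOT3 (-1.66), CPEB4 (-1.21), DUSP1 (0.79) and NR4A1 (1.21) passed, and DUSP1 also with the stricter filter. The cause of these shifts was not tested. With 1 array per line and DOX state and the hairpins as the 2 replicates, changes of adaptors of the size seen here could not be told from the spread between arrays.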
